A study of Mus musculus with 15 samples.

Results

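Germinal vesicle (GV) oocytes that lack Padi6 were compared with GV oocytes that carry 1 disrupted copy of it. All libraries whose genotype label is Padi6 knockout (KO, 3 libraries) or Padi6 heterozygote (het, 3 libraries) were taken, 6 of the 15 libraries of the study. GV oocytes are fully grown oocytes still arrested in meiotic prophase. Each library holds polyadenylated RNA of 15 oocytes, and all 6 come from mice on an FVB/N strain background. The controls are heterozygotes throughout, although bracketed library names in the titles call them WT. Neither the ages of the mice nor the animals behind each library are given in the labels, and p-values therefore measure only the spread among these libraries, which may be technical. The other 9 libraries belong to a Tle6 line on a C57BL/6J background, with 2 het and 4 KO biological replicates, and serve only for a comparison of the effects.

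PADI6 is a peptidylarginine deiminase found almost only in oocytes and early embryos. It is a main building block of the cytoplasmic lattices, fibres that fill the oocyte cytoplasm and hold maternal proteins, and it is found with the proteins of the subcortical maternal complex, such as NLRP5, TLE6, OOEP and KHDC3. Female mice without PADI6 make oocytes, but their embryos stop at the first divisions. A GV oocyte transcribes little, so its mRNA content reflects what was made during growth and what has been kept.

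Gene counts ran from 45708084 to 70204655 per library. All levels below are CPM, read counts scaled to library size with the TMM correction for composition, and fold changes are on the log2 scale with their standard error (SE). Log2 CPM correlated at 0.979 to 0.986 between libraries of the same genotype and at 0.974 to 0.982 between genotypes, and the first principal component (35.9% of the variance) separated KO from het. All 12 oocyte markers, egg coat genes and Gdf9 among them, were present in every library, with sums of 25927 to 27522 CPM in het and 27517 to 28861 CPM in KO (of all gene counts, exact permutation p = 0.2, two-sided, and 3 against 3 cannot give less than 0.1). Of the granulosa markers that define the type, Amh, Foxl2, Amhr2 and Fshr stood at or below 1.08 CPM everywhere. The exception was Cyp19a1, at 22.3 to 33.8 CPM in het and 21 to 32.8 CPM in KO. Summed granulosa markers were 114 to 131 CPM in het and 101 to 117 CPM in KO (exact p = 0.2). Most of each sum came from Nr5a2, at 63.1 to 74.4 CPM, and Cyp19a1. Amh, Amhr2, Fshr, Lhcgr and Cyp11a1 were lower in every KO library than in every het library. The groups overlapped in the other summed granulosa markers, and they did not overlap in 23.5% of all genes tested. Theca and stroma, blood, and 2-cell embryo markers each summed to 12.6 CPM or less in every library. Fewer cells of a type and less RNA per cell cannot be told apart in such libraries.

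The targeted gene was lost from the KO libraries. Padi6 (ENSMUSG00000040935.13, chromosome 4) read 1832, 1728 and 1751 CPM in the het libraries and 26, 25 and 20 CPM in the KO libraries, which is -6.22 ± 0.14 on the log2 scale (edgeR quasi-likelihood test, adjusted p = 1.24e-08). The remaining counts, 881 to 1864 per KO library, are far from 0, and which part of the transcript they cover was not analysed here. None of the 8 other genes listed for the complex and the lattices passed the test. Nlrp5, which encodes the core protein MATER, read 1060, 920 and 976 CPM in het and 924, 768 and 753 CPM in KO (-0.27 ± 0.11, adjusted p = 0.216), so that the highest KO library overlapped the het libraries. Tle6, the partner gene of the other knockout line, read 1386, 1264 and 1338 CPM in het and 1390, 1170 and 1107 CPM in KO (-0.12 ± 0.11, adjusted p = 0.601). Ooep, whose small KH-domain protein anchors the complex, had 0.24 ± 0.13 (adjusted p = 0.335), and Zbed3 and Khdc3 had 0.20 ± 0.12 and 0.30 ± 0.25. Nlrp14, Nlrp2 and Nlrp4f had fold changes of -0.24, -0.23 and -0.07. Of the other 4 peptidylarginine deiminase genes tested, Padi1 to Padi4, none passed, and group means did not exceed 2.58 CPM.

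**Figure D1:**
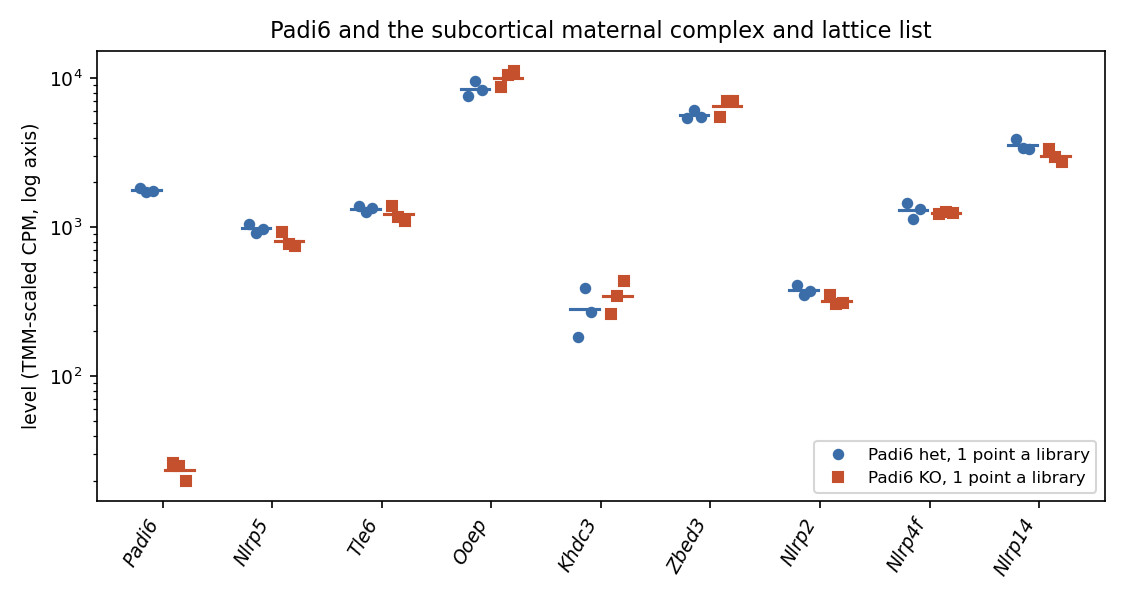
Level of Padi6 and of the 8 other genes listed for the complex and the lattices in each library (TMM-scaled CPM, log axis, not adjusted for gene length, so levels are to be read within a gene), with het as circles, KO as squares and short lines for the group means. Padi6 falls from 1728 CPM or more to 26 CPM or less, while the points of the other genes overlap or nearly meet.

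Across the transcriptome, 440 of 18228 genes tested passed an adjusted p of 0.05 (2.41%). Of these, 308 were higher in KO (1.69% of the genes tested) and 132 lower (0.724%). The higher genes were mostly scarce in het oocytes, with a median of 3.95 CPM in het and 9.84 CPM in KO and a median log2 fold change of 1.23. The lower genes started from a median of 24.2 CPM and ended at 13.6 CPM, with a median log2 fold change of -0.81. A change of at least 2-fold was reached by 211 of the higher and 51 of the lower genes. The median log2 fold change of all genes tested was -0.01, and the 3 KO libraries stood wholly above or below the 3 het libraries in 4289 genes (23.5%), all 440 called genes among them.

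The direction of change depended on the level. Among 5290 genes with a mean of 1 to 10 CPM, 139 were higher and 39 lower. Among 2223 genes at 100 CPM or more, 15 were higher and 12 lower. Protein-coding genes were called in 2.71% of 13720 cases, long intergenic RNAs in 2.77% of 1121 and processed pseudogenes in 0.486% of 1851. By chromosome the share called ran from 1.64% on chromosome 4, where Padi6 lies, to 4.27% on chromosome 18. Of the 50 tested genes on either side of Padi6, which would share linked sequence with the targeted allele, Ephb2 and Gm13041 were higher and none was lower.

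The number of calls fell whichever library was left out. A smaller fit also has less power, and the part of that in these losses was not tested. Without het 3, 49 genes were higher and 12 lower, and without KO 3 the numbers were 65 and 12. Without KO 2 they were 76 and 14, without het 1 they were 175 and 79, without het 2 they were 185 and 46, and without KO 1 they were 197 and 61. In all 6 of these smaller fits 36 of the higher and 9 of the lower genes passed, and 23 of these 45 are among the genes named below. Among the 104 named genes past the test, the direction held in each of these fits, and the largest adjusted p was 0.198 (Ubn1 without KO 2). DESeq2 called 304 of the 308 higher and 129 of the 132 lower genes and gave no adjusted p for the others. Sharing the spread of each gene with the Tle6 line left 47 higher and 13 lower genes.

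**Figure D2:**
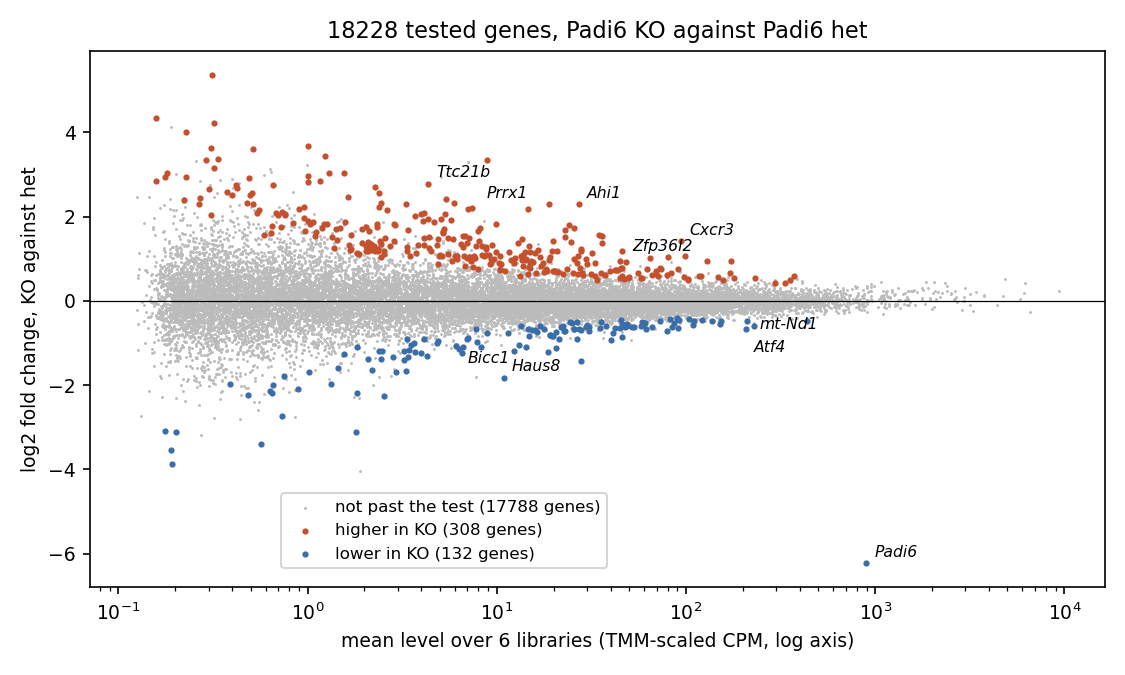
Mean level over the 6 libraries (TMM-scaled CPM, log axis) against the log2 fold change of KO over het for the 18228 tested genes, with the 308 called higher and the 132 called lower in colour. The higher genes lie mainly at lower levels, and Padi6 stands alone at -6.22.

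Of the genes for developmental transcription factors, Prrx1 and Emx2 were called in every fit. Prrx1, a homeobox factor of limb and face mesenchyme, read 5.67, 5.71 and 7.77 CPM in the het libraries and 31.4, 32.4 and 30.2 CPM in the KO libraries. It rose by 2.29 ± 0.16 (edgeR adjusted p = 3.42e-04), the smallest adjusted p of any higher gene named here, and stayed between 2.22 and 2.46 whichever library was left out. Emx2, a homeobox factor of forebrain and urogenital tract, read 16, 18 and 17.8 CPM in het and 33.6, 34.5 and 41 CPM in KO (1.07 ± 0.13, adjusted p = 0.00573). For both genes every KO library was above every het library by a wide margin. Of 66 homeobox genes tested these 2 rose and none fell (3.03%, beside 2.41% of all genes), with a median log2 fold change of 0.12 against -0.01 for all genes. Among 110 other developmental transcription factors, Foxp2, Tcf4 and Sox6 rose and none fell (2.73%), and the median was 0.16, while DESeq2 called 15. Both edgeR shares are close to that of all genes. DESeq2 called 7 of the homeobox list, and 7.27% of all genes it gave an adjusted p. Foxp2, a forkhead factor, read 105, 89 and 93.5 CPM in het and 137, 146 and 152 CPM in KO (0.60 ± 0.10, adjusted p = 0.02). Sox6, an HMG-box factor of cartilage and muscle, was less even, at 9.13, 10.5 and 10.3 CPM in het and 26, 12.8 and 27 CPM in KO, since KO 2 lay close to the het libraries (1.13 ± 0.25, adjusted p = 0.0474). Tcf4, a bHLH partner factor, read 13.2, 29.7 and 12.2 CPM in het and 48.4, 43.8 and 68 CPM in KO (1.54 ± 0.31, adjusted p = 0.0377). These last 3 calls were lost in 4 or 5 of the fits with a library left out, Tcf4 without any but het 2, Sox6 without any but KO 2 and Foxp2 without het 2, het 3, KO 2 or KO 3, with adjusted p-values up to 0.134, 0.152 and 0.106. None of the 25 tested transcription factors and regulators of the oocyte itself passed, a number too small to set apart from 2.41%. Their median was 0.20, 7 had an unadjusted p under 0.05 and DESeq2 called 2, and Nobox (0.35 ± 0.10) and Obox2 (0.30 ± 0.10) had adjusted p-values of 0.097 and 0.15.

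Genes of the primary cilium and of Hedgehog signalling, a pathway read out at that organelle, gave 3 of the largest increases. Ttc21b encodes IFT139, a retrograde transport subunit of the cilium. It read 1.21, 0.879 and 1.19 CPM in het and 7.7, 8.67 and 6.22 CPM in KO, an increase of 2.78 ± 0.23 (edgeR adjusted p = 9.36e-04). Ahi1 encodes jouberin, a protein of the ciliary base. It read 9.5, 11.4 and 6.55 CPM in het and 49.5, 46.2 and 39.6 CPM in KO (2.31 ± 0.20, adjusted p = 9.70e-04). Gli2, the main activating transcription factor of the Hedgehog pathway, read 5.38, 7.55 and 3.06 CPM in het and 20.2, 19.5 and 32.6 CPM in KO (2.18 ± 0.31, adjusted p = 0.0121). All 3 passed in every fit with a library left out. The remaining members did not follow as groups. Of 30 Hedgehog and cilium base genes, Ahi1 and Gli2 rose and none fell (6.67%, beside 2.41% of all genes), with a median of 0.01. Ptch1, the Hedgehog receptor and a target of the pathway, went from 0.581 to 1.23 CPM (1.09 ± 0.36, adjusted p = 0.142), and Gli3 from 372 to 445 CPM (0.26 ± 0.14, adjusted p = 0.352). Of 77 genes of cilium structure and transport, Ttc21b and Rsph3a rose, Cfap45 fell (3.9% called) and the median was -0.07. Rsph3a, a radial spoke gene, changed by 0.66 ± 0.12 and Cfap45, an axoneme gene, by -0.97 ± 0.18. Both calls were lost without het 3, KO 2 or KO 3, Rsph3a also without KO 1 and Cfap45 also without het 1 or het 2, with adjusted p-values of at most 0.118 and 0.0985.

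**Figure D3:**
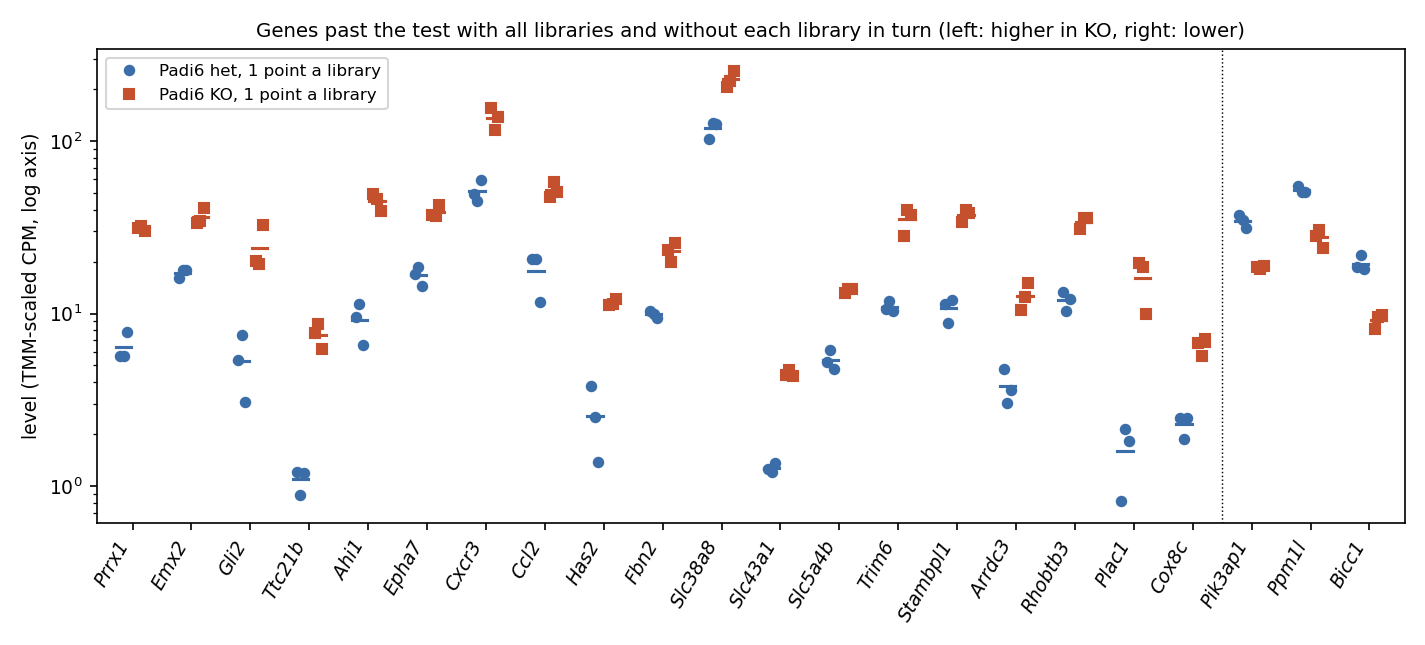
Level in each library (TMM-scaled CPM, log axis) of 19 named genes higher and 3 named genes lower in KO that passed the test with all 6 libraries and without each library in turn, with het as circles, KO as squares and short lines for the group means. In every gene shown, as in all 440 called genes, all 3 KO libraries lie on the same side of all 3 het libraries. Padi6, which also passed in every fit, is left out.

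Among 47 tested receptor tyrosine kinases and growth factor ligands, 5 rose and none fell (10.6%, beside 2.41% of all genes), while 21 of the 47 values were negative and the median was 0.06. Epha7, an ephrin receptor, read 17, 18.6 and 14.4 CPM in het and 37.5, 36.9 and 42.4 CPM in KO (1.22 ± 0.13, edgeR adjusted p = 0.0043) and passed in every smaller fit. Hbegf, a ligand of the EGF receptor, read 2.22, 2.94 and 2.37 CPM in het and 7.81, 6.29 and 9.44 CPM in KO (1.64 ± 0.22, adjusted p = 0.00855). The groups were well apart, and the call was lost only without het 3 (adjusted p = 0.0538). Erbb3, a receptor of the same family with little kinase activity of its own, read 5.67, 7.89 and 11.9 CPM in het and 18.3, 17.9 and 27.3 CPM in KO (1.31 ± 0.27, adjusted p = 0.0363). Egfr itself was the most modest of these changes, at 333, 270 and 286 CPM in het and 434, 380 and 435 CPM in KO (0.49 ± 0.11, adjusted p = 0.0474). Ephb2, another ephrin receptor, rose by 0.89 ± 0.15 (adjusted p = 0.02). Kit, the receptor through which the follicle supports oocyte growth, had -0.41 ± 0.10 (adjusted p = 0.0648). Dusp6 and Dusp5, phosphatases of ERK kinases, also rose. Dusp6 read 2.46, 2.09 and 1.67 CPM in het and 5.42, 5.85 and 12.9 CPM in KO (1.95 ± 0.34, adjusted p = 0.0225), with KO 3 far above the other KO libraries. Dusp5 stayed at or below 1.32 CPM in every library (2.74 ± 0.60, adjusted p = 0.046). No other member of the 26 immediate early and MAPK feedback genes passed. Among them Egr1 had 0.59 ± 0.14 (adjusted p = 0.0528) and Spry4 0.28 ± 0.12 (adjusted p = 0.243). Erbb3 lost its call without any library but het 3 (adjusted p up to 0.119), Egfr without any but het 1 (up to 0.183), Dusp6 without het 2, het 3 or KO 3 (up to 0.109), Ephb2 without het 3, KO 2 or KO 3 (up to 0.0864) and Dusp5 without any library (up to 0.156).

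In the Wnt list, 3 of 38 tested members rose and none fell (7.9%, beside 2.41% of all genes). The median was 0.09, with 17 of the 38 values negative. Dkk3, a member of the dickkopf family, read 5.7, 8.18 and 7.84 CPM in het and 23, 17 and 16.1 CPM in KO (1.37 ± 0.20, edgeR adjusted p = 0.0117), and lost its call only without het 3 (adjusted p = 0.0534). Dkk4, a Wnt antagonist, rose by 1.42 ± 0.30 and Wls, the carrier that brings Wnt ligands to the cell surface, by 0.59 ± 0.13. Both lost their calls without any library but KO 1, with adjusted p-values up to 0.134 and 0.169. Axin2, a common readout of canonical Wnt signalling, had 0.43 ± 0.13 (adjusted p = 0.108). In the extracellular matrix list, 4 of 94 members rose and none fell (4.3%), while 51 of the 94 values were negative and the median was -0.06. Fbn2, a fibrillin of elastic microfibrils, read 10.4, 9.98 and 9.44 CPM in het and 23.3, 19.9 and 25.8 CPM in KO (1.21 ± 0.14, adjusted p = 0.00573). Has2, which makes hyaluronan and is best known from expanding cumulus cells, read 3.79, 2.5 and 1.37 CPM in het and 11.2, 11.4 and 12.2 CPM in KO (2.19 ± 0.31, adjusted p = 0.0109). Fbn2 and Has2 passed in every smaller fit. Has2 is also the only one of 20 tested granulosa and cumulus genes past the test. In that list 14 of 20 values were negative, with a median of -0.46. Cyp11a1, a steroid-making enzyme of granulosa cells, read 7.38, 5.28 and 23.6 CPM in het and 3.25, 2.99 and 4.13 CPM in KO, with het 3 far above the rest. Itga5, an integrin chain, rose by 1.30 ± 0.24 and Mmp10, a matrix protease at 0.429 CPM or less in every library, by 3.04 ± 0.57. Itga5 lost its call without any library but het 2 and Mmp10 without any library (adjusted p up to 0.115 and 0.139).

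Several genes known mainly from immune cells were higher in KO oocytes. Cxcr3, a chemokine receptor, read 49.4, 44.7 and 59.4 CPM in het and 155, 116 and 139 CPM in KO (1.42 ± 0.14, edgeR adjusted p = 0.00254). Ccl2, a monocyte-attracting chemokine, read 20.8, 20.7 and 11.7 CPM in het and 47.5, 57.9 and 50.9 CPM in KO (1.56 ± 0.21, adjusted p = 0.00855). Both passed in every smaller fit. The defining blood and immune markers Ptprc, Adgre1 and Hba-a1 stood at 0.0831 CPM or less in every library, and the summed blood markers were 0.796 to 2.58 CPM in het and 1.29 to 1.55 CPM in KO. Of 45 genes of the MHC and interferon list, 3 rose and none fell (6.67%, beside 2.41% of all genes, median 0.08). Irf8, an interferon-regulated transcription factor, read 25.5, 34.8 and 31.4 CPM in het and 57.5, 55 and 63.3 CPM in KO (0.94 ± 0.13, adjusted p = 0.0111). H2-Aa, the alpha chain of an MHC class II molecule, read 14.9, 8.55 and 14.6 CPM in het and 31.5, 27.4 and 27.6 CPM in KO (1.19 ± 0.20, adjusted p = 0.02). Ifitm3, a membrane protein induced by interferon, rose by 0.67 ± 0.13 (adjusted p = 0.0347). Irf8 lost its call without het 3 (adjusted p = 0.0584), H2-Aa without het 3 or any KO library (up to 0.0709) and Ifitm3 without any library but het 2 (up to 0.132).

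Of 275 solute carriers tested, 6 rose and none fell, which is 2.18% beside 2.41% of all genes, with a median of 0.05. In edgeR solute carriers were thus called about as often as other genes. DESeq2 called 33 of the list, and 7.27% of all genes it gave an adjusted p. Slc38a8, an amino acid transporter, read 104, 128 and 125 CPM in het and 207, 224 and 256 CPM in KO (0.95 ± 0.12, edgeR adjusted p = 0.00729). Slc43a1, a carrier of large neutral amino acids, read 1.25, 1.21 and 1.35 CPM in het and 4.4, 4.71 and 4.36 CPM in KO (1.82 ± 0.21, adjusted p = 0.00523). Slc5a4b, of the sodium-glucose carrier family, read 5.22, 6.18 and 4.76 CPM in het and 13.2, 13.8 and 13.8 CPM in KO (1.34 ± 0.16, adjusted p = 0.00589). These 3 genes passed in every smaller fit, and the KO libraries of each lay close together. Slc1a1, a glutamate transporter, rose by 1.62 ± 0.22 and lost its call only without het 3 (adjusted p = 0.0553). Selenop, the selenium carrier, read 3.23, 1.96 and 2.64 CPM in het and 12.2, 7.71 and 16.6 CPM in KO (2.21 ± 0.29, adjusted p = 0.00855). Mgst1, a membrane glutathione transferase, rose by 2.06 ± 0.33, and these were the only 2 of 40 antioxidant genes called (5%, median 0.12). Selenop and Mgst1 lost their calls without het 3, with adjusted p-values of 0.0507 and 0.09.

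Among the remaining large increases, Plac1, an X-linked gene of placenta and oocyte, read 0.814, 2.13 and 1.82 CPM in het and 19.7, 18.7 and 9.96 CPM in KO. Its log2 fold change of 3.35 ± 0.36 (edgeR adjusted p = 0.0043) was the largest of the higher genes named here at 10 CPM or more. Stambpl1, a deubiquitinase for lysine-63 chains, read 11.4, 8.82 and 12 CPM in het and 34, 40 and 38.1 CPM in KO (1.80 ± 0.15, adjusted p = 9.36e-04). Trim6, a ubiquitin ligase, read 10.6, 11.8 and 10.3 CPM in het and 28.3, 39.7 and 37.5 CPM in KO (1.69 ± 0.15, adjusted p = 0.00143). Rhobtb3 rose by 1.52 ± 0.14, Arrdc3, an arrestin-domain protein, by 1.73 ± 0.22 and Cox8c, a tissue-restricted isoform of a respiratory chain subunit, by 1.51 ± 0.21. All 6 passed in every smaller fit. Cox8c was the only one of 82 nuclear-encoded respiratory chain genes called, and their median was -0.01. Creg2 rose by 1.55 ± 0.24 and Hspb1, a small heat shock protein, by 1.49 ± 0.22, each losing its call without KO 3 (adjusted p = 0.0502 and 0.0554). Dirc2 rose by 1.72 ± 0.37 (adjusted p = 0.0457), but het 2 at 21.1 CPM lay well above the other het libraries, and the call was lost without any library but het 2 (adjusted p up to 0.133).

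The promoters of the called genes were read for short motifs. RefSeq promoter sequence (build GRCm38.p6) was at hand for 10956 of the 13371 tested protein-coding genes considered (81.9%), among them 204 of 247 higher and 84 of 107 lower genes. In the 250 bases before the annotated start, the letters TATAAA, the core of the TATA box, stood on either strand in 7.27% of all these promoters, in 14.2% of those of higher genes and in 4.76% of those of lower genes. TAATTA, a core letter pattern of homeodomain proteins, stood in 2.89%, 7.84% and 0%, and the related TAATTG in 4.85%, 10.8% and 3.57%. Any of the 3 stood in 13.5% of all promoters, in 13.7% of those of genes at 1 to 10 CPM, in 27.5% of those of higher genes (56 of 204) and in 7.14% of those of lower genes (6 of 84). The E-box CACGTG went from 8.2% of all to 8.82% of higher and 14.3% of lower genes, and the GC box GGGCGG from 55.6% to 50% and 54.8%. The other motifs searched stood in all, higher and lower genes as follows. CCAAT stood in 36.5%, 31.9% and 41.7%, TGACGTCA, the cyclic AMP response element, in 2.67%, 1.96% and 5.95%, TGATGNAA in 2.14%, 5.39% and 1.19%, and TGANTCA, the AP-1 letters, in 4.51%, 6.37% and 3.57%. Base composition moved along with these matches. The median GC content was 59.2% in all, 56.8% in higher and 60.8% in lower genes, and the median ratio of observed to expected CpG was 0.704, 0.565 and 0.743. In all genes at 1 to 10 CPM these medians were 58.4% and 0.643. The part of base composition in the motif shares was not tested. A match is only a run of letters in this window, and the motifs shown were picked from all those searched after their shares were seen. A promoter with several matches counts as 1, and TAATTA and TAATTG can overlap. The 6 promoters below show 4 higher genes with a match, then Padi6 and Pik3ap1, a gene that fell, without a match to the TATA box or homeodomain letters. They were chosen after their matches were seen. Capitals mark the TATA box letters and the homeodomain letters named above, on either strand, and each sequence runs 5′ to 3′ on the strand of its gene and ends at the last base before the start.
Prrx1: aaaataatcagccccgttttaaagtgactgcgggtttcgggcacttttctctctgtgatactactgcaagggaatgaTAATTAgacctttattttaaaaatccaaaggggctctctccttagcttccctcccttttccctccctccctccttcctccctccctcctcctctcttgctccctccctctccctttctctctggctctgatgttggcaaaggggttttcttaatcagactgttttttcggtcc
Trim6: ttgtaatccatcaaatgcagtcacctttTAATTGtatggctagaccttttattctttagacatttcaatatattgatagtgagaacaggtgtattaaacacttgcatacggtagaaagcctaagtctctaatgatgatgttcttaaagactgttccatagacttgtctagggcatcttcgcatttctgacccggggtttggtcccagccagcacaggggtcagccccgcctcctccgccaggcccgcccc
Slc43a1: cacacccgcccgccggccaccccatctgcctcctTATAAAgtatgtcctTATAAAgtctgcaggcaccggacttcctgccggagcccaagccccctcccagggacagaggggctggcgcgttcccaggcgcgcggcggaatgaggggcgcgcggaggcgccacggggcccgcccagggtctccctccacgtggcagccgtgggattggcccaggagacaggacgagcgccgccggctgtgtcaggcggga
Irf8: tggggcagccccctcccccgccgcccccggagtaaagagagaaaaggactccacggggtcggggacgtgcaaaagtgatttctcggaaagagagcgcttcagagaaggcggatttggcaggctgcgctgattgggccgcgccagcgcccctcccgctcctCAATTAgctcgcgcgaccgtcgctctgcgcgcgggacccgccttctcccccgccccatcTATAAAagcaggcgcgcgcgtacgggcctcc
Padi6: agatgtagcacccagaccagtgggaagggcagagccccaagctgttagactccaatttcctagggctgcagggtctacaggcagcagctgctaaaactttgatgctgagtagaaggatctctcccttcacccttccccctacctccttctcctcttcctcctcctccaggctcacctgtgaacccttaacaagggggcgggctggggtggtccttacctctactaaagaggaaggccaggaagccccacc
Pik3ap1: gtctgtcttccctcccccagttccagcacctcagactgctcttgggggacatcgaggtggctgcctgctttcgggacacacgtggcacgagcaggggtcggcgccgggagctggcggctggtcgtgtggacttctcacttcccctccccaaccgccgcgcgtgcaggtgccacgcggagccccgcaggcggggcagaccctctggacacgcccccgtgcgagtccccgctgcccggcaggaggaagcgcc
These windows lie at chr1:163313651-163313900 (minus strand) for Prrx1, at chr7:104218545-104218794 (plus strand) for Trim6, at chr2:84840073-84840322 (plus strand) for Slc43a1, at chr8:120736108-120736357 (plus strand) for Irf8, at chr4:140742644-140742893 (minus strand) for Padi6 and at chr19:41385103-41385352 (minus strand) for Pik3ap1. The Prrx1 window is 47.6% GC with 4 CpG sites and that of Trim6 45.6% with 6, while Slc43a1 (70.8%, 24 sites) and Irf8 (67.2%, 29 sites) have more CpG sites. RefSeq lists 2 start sites for Irf8, and the first listed is shown.

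Called genes that oocytes already carried in quantity changed by smaller steps. The median absolute log2 fold change of called genes was 1.33 at 1 to 10 CPM and 0.54 at 100 CPM or more. A small change is harder to call at low counts, and the part of that in this difference was not tested. Ranked by difference of mean CPM, the higher genes were led by Cited2, a transcriptional co-regulator, at 281, 318 and 283 CPM in het and 371, 472 and 496 CPM in KO (0.60 ± 0.12, edgeR adjusted p = 0.0361). Tubb5, a beta-tubulin isotype, read 279, 264 and 309 CPM in het and 395, 366 and 390 CPM in KO (0.43 ± 0.10, adjusted p = 0.0475), and it was the only one of 17 tubulin genes called (median 0.07). Anxa2, a membrane-binding annexin, read 67.2, 83.3 and 113 CPM in het and 152, 161 and 195 CPM in KO (0.95 ± 0.18, adjusted p = 0.027). Every KO library was above every het library in these 3 genes, with KO 1 nearest to het for Cited2 and Anxa2. Nostrin, a regulator of nitric oxide synthase traffic, rose by 1.06 ± 0.14 and Fam110c, a centrosome-associated protein, by 0.66 ± 0.09, each lost only without het 3 (adjusted p = 0.0534 and 0.0755). Upp1, uridine phosphorylase, rose by 0.54 ± 0.10 and Naa16, a subunit of an N-terminal acetyltransferase, by 0.44 ± 0.09. Tubb5 and Naa16 were called only with all 6 libraries (adjusted p up to 0.141 and 0.179), Cited2 and Upp1 lost their calls without any library but KO 1 (up to 0.147 and 0.119) and Anxa2 without het 2, KO 2 or KO 3 (up to 0.0932).

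The lower genes were fewer and their changes smaller. Bicc1 encodes an RNA-binding protein that controls translation of maternal mRNA. It read 18.6, 21.9 and 18.1 CPM in het and 8.19, 9.56 and 9.76 CPM in KO, and fell by 1.09 ± 0.15 (SE) on the log2 scale (edgeR adjusted p = 0.00855). Pik3ap1, an adaptor of PI3 kinase, read 37.5, 35 and 31.3 CPM in het and 18.5, 18.2 and 18.9 CPM in KO (-0.90 ± 0.12, adjusted p = 0.00828). Ppm1l, a protein phosphatase of the PP2C family, read 55.2, 50.9 and 50.9 CPM in het and 28.3, 30.6 and 24.1 CPM in KO (-0.92 ± 0.12, adjusted p = 0.00828). These 3 genes passed in every smaller fit, and every KO library of each lay below every het library. Cmklr1, the chemerin receptor, fell further but less evenly, from 32.6, 43.9 and 44.9 CPM in het to 10.2, 12.6 and 22.2 CPM in KO (-1.44 ± 0.26, adjusted p = 0.0239). Enox2 changed by -0.84 ± 0.13 and Ccnk, a cyclin that works with kinases of transcription, by -0.82 ± 0.13. Cmklr1 lost its call without het 2, het 3, KO 1 or KO 2 (adjusted p up to 0.106), Enox2 without KO 2 or KO 3 (up to 0.0764) and Ccnk without het 3, KO 2 or KO 3 (up to 0.0839). St3gal5, a ganglioside synthase, and Miip changed by -0.90 ± 0.18 and -0.82 ± 0.18, with adjusted p-values up to 0.135 and 0.149 when a library was left out.

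Maternal mRNA factors changed in few members. Of 31 genes that store or mask maternal mRNA, Bicc1 and Igf2bp3 fell and none rose (6.45%, beside 2.41% of all genes). The median was 0.06. Igf2bp3, an mRNA-binding protein, read 78.1, 66.2 and 67.8 CPM in het and 51.1, 48 and 48.1 CPM in KO (-0.53 ± 0.10, edgeR adjusted p = 0.0347), and was called only with all 6 libraries (adjusted p up to 0.148). Zar1, Ybx2 and Cpeb1, central storage factors, had -0.16 ± 0.10, -0.28 ± 0.10 and 0.22 ± 0.19, and none passed. Of 35 deadenylation and decay genes, Zfp36l2 rose and none fell (2.86%, median 0.02). Zfp36l2, which directs mRNAs with AU-rich elements to decay and is needed in oocytes, read 32.2, 24 and 27.3 CPM in het and 51, 70.9 and 68.6 CPM in KO (1.19 ± 0.16, adjusted p = 0.00855). The lowest KO library stood at 51 CPM and the highest het library at 32.2 CPM, and the call was lost only without het 3 (adjusted p = 0.0507). Btg4, the adaptor of the deadenylase in maturing oocytes, had 0.30 ± 0.11 (adjusted p = 0.192). Among 65 translation factor genes Eif4h rose by 0.54 ± 0.11, called only with all 6 libraries (adjusted p up to 0.137).

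Genes of the spindle and the chromosomes were called in few members of each list. Haus8, a subunit of augmin, the complex that branches spindle microtubules, read 11.3, 26.2 and 13.4 CPM in het and 5.56, 4.21 and 4.58 CPM in KO, with het 2 far above the other het libraries. Its change of -1.82 ± 0.29 (edgeR adjusted p = 0.0181) was, after Padi6, the largest among named lower genes at 10 CPM or more, and the call was lost without KO 2 or KO 3 (adjusted p = 0.0785 and 0.0682). It was the only one of 25 augmin and spindle nucleation genes called (4%, beside 2.41% of all genes), and 19 of the 25 were negative (median -0.14). Cenpf and Mki67 were named for their CPM difference and belong to none of the lists. Cenpf, a kinetochore protein, read 275, 276 and 276 CPM in het and 207, 178 and 167 CPM in KO (-0.59 ± 0.10, adjusted p = 0.0225). Mki67, the coat protein of mitotic chromosomes, read 114, 88.1 and 95.5 CPM in het and 67.5, 58.9 and 53.9 CPM in KO (-0.73 ± 0.13, adjusted p = 0.0233). The het libraries of Cenpf hardly differed, and the groups of both genes were apart. Rad51d, a gene of recombination repair, read 16.1, 22.1 and 14.7 CPM in het and 8.3, 8.29 and 9.17 CPM in KO (-1.04 ± 0.17, adjusted p = 0.02). Meioc, a gene of meiotic prophase, went the other way at 4.27, 5.46 and 3.38 CPM in het and 11.3, 14.8 and 20.2 CPM in KO (1.82 ± 0.25, adjusted p = 0.00944). They were the only 2 of 33 recombination and prophase genes called (6.06%). Smc1b, the meiotic cohesin, changed by -0.49 ± 0.11, Xrcc5, the Ku80 gene of end joining, by -0.48 ± 0.10 and the kinesin gene Kif26a by -1.38 ± 0.30. Smc1b was the only one of 18 cohesin genes and Kif26a the only one of 34 kinesins called. The calls of Cenpf and Mki67 were lost without het 3, KO 2 or KO 3, that of Cenpf also without het 2 and that of Mki67 also without het 1 (adjusted p up to 0.115 and 0.11). Rad51d lost its call without het 3 or any KO library (up to 0.0889), Meioc without het 3 (0.0507), Kif26a without any library but het 1 (0.157), and Smc1b and Xrcc5 were called only with all 6 libraries (up to 0.178 and 0.183). No gene of the spindle checkpoint list passed in edgeR (22 tested, median -0.03, 6 at an unadjusted p under 0.05, 1 called by DESeq2). The same held for meiotic arrest and maturation (35 tested, 5 at an unadjusted p under 0.05, 0 called by DESeq2).

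Chromatin genes moved in both directions. Of 30 histone genes, which in poly(A) libraries are seen only through polyadenylated forms, Hist1h2bc and Hist1h2ac fell and Hist1h1e rose. That is 10%, beside 2.41% of all genes. In edgeR 14 of the 30 had an unadjusted p under 0.05, beside 18.6% of all genes tested. DESeq2 called 11 of the list, and 7.27% of all genes it gave an adjusted p. Hist1h2bc read 19.3, 13.9 and 18.4 CPM in het and 7.05, 9.2 and 6.45 CPM in KO (-1.19 ± 0.19, edgeR adjusted p = 0.0169), and lost its call without het 3 or KO 3 (adjusted p = 0.0849 and 0.0618). The other 2 stood at 1.45 CPM or less in every library and lost their calls without any library but KO 1 (adjusted p up to 0.152 and 0.179). Smarca4, the BRG1 ATPase, which acts at genome activation, read 62, 91.1 and 72.7 CPM in het and 50.4, 50.2 and 41.9 CPM in KO (-0.66 ± 0.15, adjusted p = 0.048). It was the only one of 97 chromatin writers, erasers and remodellers called. Ubn1, a subunit of the HIRA histone chaperone, changed by -0.48 ± 0.11. Both lost their calls in 5 smaller fits, Smarca4 without any library but het 1 (adjusted p up to 0.157) and Ubn1 without any but KO 1 (up to 0.198). None of 24 DNA methylation and imprint maintenance genes passed in edgeR (median -0.06, 6 at an unadjusted p under 0.05, 2 called by DESeq2).

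Among genes of stress and metabolism, Atf4, the transcription factor of the integrated stress response, fell. It read 209, 281 and 272 CPM in het and 167, 151 and 159 CPM in KO (-0.68 ± 0.12, edgeR adjusted p = 0.0239), so that the highest KO library lay below the lowest het library. Dnajb9, an endoplasmic reticulum co-chaperone, rose by 0.74 ± 0.16, and Hspa5, the chaperone BiP, had -0.24 ± 0.14 (adjusted p = 0.416). Of the 37 genes of this response, 27 were negative and the median was -0.07. Wdr24, part of the GATOR2 complex that relays amino acid supply to mTORC1, read 21.4, 32.2 and 30.5 CPM in het and 16.6, 11.2 and 10.9 CPM in KO (-1.11 ± 0.20, adjusted p = 0.0247). Of the mitochondrially encoded genes, 9 of 11 had negative values, with a median of -0.43, although mt-Nd1 alone passed in edgeR. DESeq2 called 5 of the list, and 7.27% of all genes it gave an adjusted p. In edgeR 6 of the 11 had an unadjusted p under 0.05, beside 18.6% of all genes tested. The KO and het libraries did not overlap in 6 of the 11, beside 23.5% of all genes tested. mt-Nd1, a complex I subunit, read 237, 253 and 243 CPM in het and 184, 177 and 168 CPM in KO (-0.47 ± 0.09, adjusted p = 0.0283). Their summed share of all gene counts was 0.75, 0.994 and 0.871% in het and 0.781, 0.747 and 0.584% in KO (two-sided exact permutation test p = 0.2, adjusted over 9 classes 0.36), so the groups overlap. The calls of Atf4, Wdr24 and mt-Nd1 were lost without het 2, het 3, KO 2 or KO 3, that of Atf4 also without KO 1 and that of mt-Nd1 also without het 1, with adjusted p-values up to 0.117, 0.115 and 0.132. Dnajb9 was called only with all 6 libraries (up to 0.153).

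Many groups central to the oocyte had no member past the edgeR test. Beside each follows the number of genes tested, of genes at an unadjusted p under 0.05 and of genes called by DESeq2. Over all genes tested, 18.6% had an unadjusted p under 0.05, and DESeq2 called 7.27% of those it gave an adjusted p. The egg coat and fertilisation surface genes had 14, 1 and 1, and the paracrine factors with Kit and the gap junction genes had 9, 1 and 1. Small RNA pathways had 28, 8 and 3, the chaperonin and cofactors that fold tubulin 21, 3 and 1, and actin nucleators and myosins 34, 4 and 2. Translation and turnover machinery was similar, with 83, 4 and 3 for cytosolic and 77, 8 and 1 for mitochondrial ribosomal proteins, 48, 0 and 0 for the proteasome, 31, 4 and 2 for ubiquitin-conjugating enzymes and 54, 9 and 1 for autophagy and lysosome genes. The nuclear pore had 46, 8 and 3. Among F-box and SCF genes, Fbxl21 rose by 1.06 ± 0.21 and Fbxw13, of an oocyte F-box cluster, fell by 0.56 ± 0.12 (SE), each called only with all 6 libraries (adjusted p up to 0.135 and 0.169). Of 52 USP genes, Usp27x changed by -0.77 ± 0.16 and Usp17le, also a 2-cell embryo transcript, by 2.74 ± 0.59 from under 0.3 CPM. Of the defining 2-cell markers, Zscan4d had 0.40 ± 0.22 (adjusted p = 0.365) and Zfp352, at 0.562 CPM or less, -0.68 ± 0.55 (adjusted p = 0.563). Of 33 imprinted genes Phlda2, a growth-restraining gene of the placenta, rose by 1.00 ± 0.22. Of 100 splicing genes Sf3b6 and Rbm41 rose and Rbm19 fell, and of 300 Zfp genes 3 rose and 3 fell. These calls were lost without het 3, KO 3 and, apart from that, at least 2 other libraries, with adjusted p-values up to 0.167 for Usp27x, 0.142 for Usp17le, 0.14 for Phlda2, 0.14 for Sf3b6, 0.169 for Rbm41 and 0.142 for Rbm19.

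**Figure D4:**
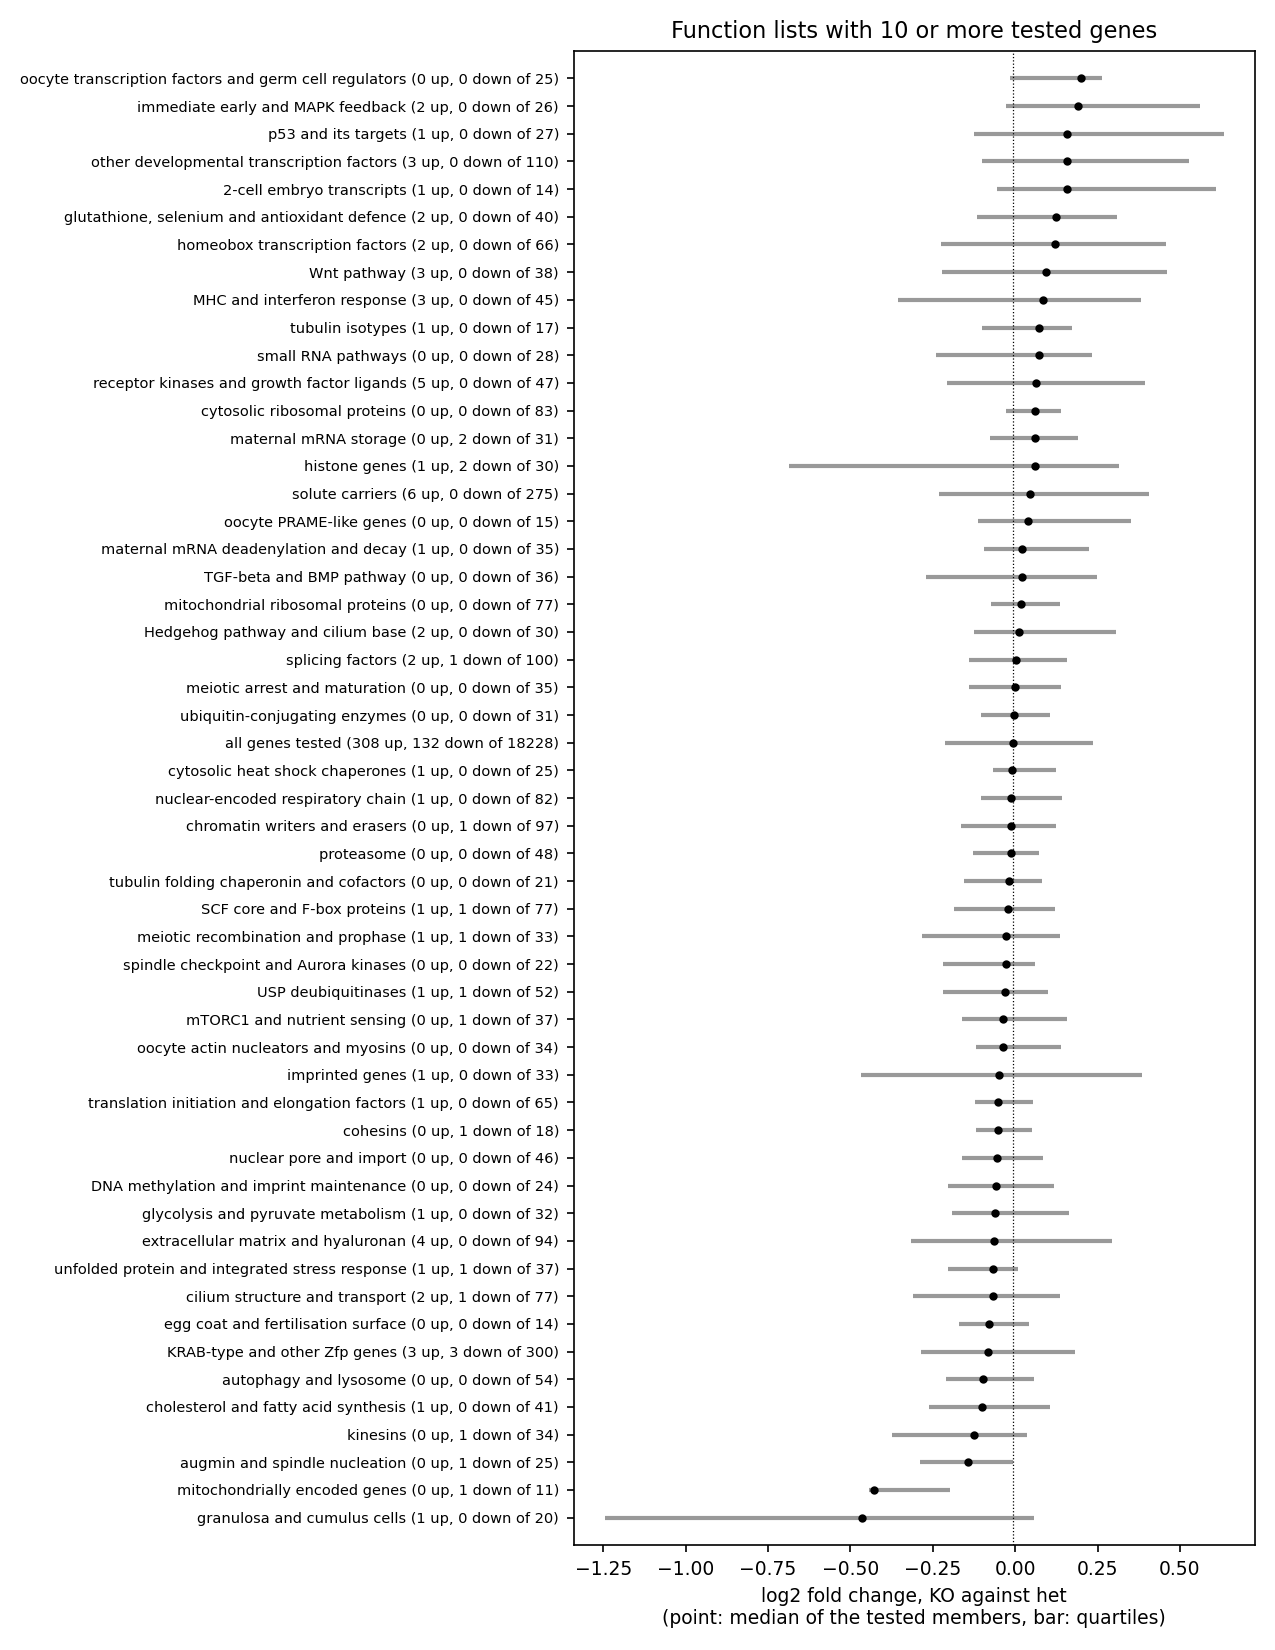
Median (point) and quartiles (bar) of the log2 fold change of KO over het for function lists with 10 or more tested genes, each with its number of genes called higher (up) and lower (down), and all tested genes in the same form; the dotted line marks the median of all genes. Most medians lie within 0.2 of 0, and the granulosa and mitochondrially encoded lists lie lowest, at -0.46 and -0.43.

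The Padi6 effects were set against those of the Tle6 line by a test of the difference itself, over 12 biological replicates. In the Tle6 line alone 329 of 20276 genes passed (1.62%), and the difference between the lines passed for 924 of 21392 genes (4.32%), 159 of them genes called in the Padi6 line. The lines differ in strain background, so an effect of the gene and of the strain cannot be told apart here. In Tle6 het replicate 2 the technical libraries A and B correlated at 0.938 in log2 CPM, while the 2 other technical pairs of the line correlated at 0.998 and 0.999. The median correlation with the other libraries of the line was 0.955 for A and 0.940 for B, against 0.965 to 0.974 for the rest. Without B 382 genes differed, and without A 1234. Of the 308 genes higher in Padi6 KO, 287 were tested in the Tle6 line, where 114 were positive, 173 negative, 1 called higher and 14 called lower. Of the 132 lower genes, 131 were tested there, with 70 positive, 61 negative, 2 called higher and 2 called lower. How all 329 Tle6-line calls divide by direction is not given here. These splits therefore cannot be set against that of all genes of the line.

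In all, 19 genes were called in both lines, and 16 of them in opposite directions. Haus8 fell in Padi6 KO, while in the Tle6 line it read 3.8 and 6.87 CPM in the 2 het and 47.9, 68.4, 64.6 and 56.9 CPM in the 4 KO replicates (3.52 ± 0.32, edgeR adjusted p = 0.00189). The difference of Padi6 minus Tle6 effect was -5.29 ± 0.47 (adjusted p = 6.02e-05). Rad51d likewise read 7.86 and 10.8 CPM in Tle6 het and 49.6, 47.7, 54.7 and 52 CPM in Tle6 KO, a difference of -3.48 ± 0.27 (adjusted p = 1.51e-05). H2-Aa went the reverse way, from 31.8 and 17.4 CPM in Tle6 het to 2.29, 1.73, 1.19 and 1.74 CPM in Tle6 KO, with a difference of 5.02 ± 0.41 (adjusted p = 3.02e-05). Receptor signalling genes were among the opposed ones. Epha7 read 20.7 and 14.3 CPM in Tle6 het and 5.45, 7.46, 6.65 and 5.48 CPM in Tle6 KO (difference 2.71 ± 0.27, adjusted p = 1.46e-04). Erbb3 read 17.7 and 20.1 CPM in Tle6 het and 5.42, 4.5, 4.34 and 5.03 CPM in Tle6 KO (difference 3.28 ± 0.37, adjusted p = 3.08e-04). For each of these genes the Tle6 het and KO replicates did not overlap. Dusp6 and Sox6 differed by 4.32 ± 0.46 and 3.63 ± 0.42, Frk, a Src-family kinase, by 3.01 ± 0.29 and Rnf144a, a ubiquitin ligase, by 3.20 ± 0.34. Grb7, an adaptor of ErbB receptors, Arid5b, Zfp521, Vldlr, the VLDL receptor, Tcf4, Zfp931 and Gm39154 also rose in Padi6 KO and fell in Tle6 KO, with differences from 2.06 to 5.93. These 16 differences passed in all 11 alternative fits of the difference, apart from Dusp6 and Gm39154, which did not pass or were not tested with a mean of at least 5 CPM required. The 16 genes were picked for calls in opposite directions in these same libraries. Their passing differences and the lack of overlap therefore follow largely from that choice. Without library B of Tle6 het replicate 2 the differences of Erbb3, Sox6, Dusp6 and Tcf4 were 2.64, 3.00, 3.73 and 3.37, and without library A they were 3.66, 3.99, 4.67 and 4.73. Within the Padi6 line, the calls of these 16 genes other than Epha7 each failed without at least 1 library, with an adjusted p of up to 0.152 (Sox6). Only Dclk3 rose in both lines, and Smc1b and Lrrtm3 fell in both. Their differences of -0.41 ± 0.28, 0.81 ± 0.22 and 0.65 ± 0.30 did not pass (adjusted p = 0.441, 0.0589 and 0.238). Padi6 itself read 2933 and 2164 CPM in Tle6 het and 2387, 1807, 2061 and 2617 CPM in Tle6 KO (-0.16 ± 0.22, adjusted p = 0.737).

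**Figure D5:**
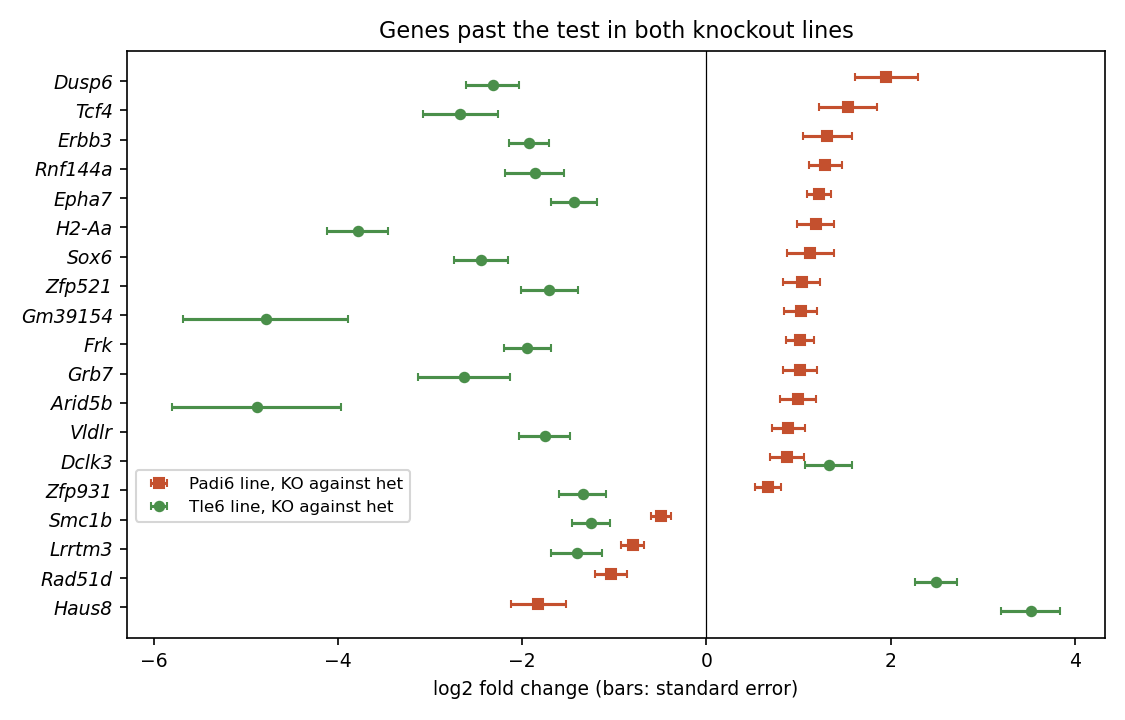
Log2 fold change of KO over het in the Padi6 line (squares) and in the Tle6 line (circles) for the 19 genes past the test in both, with bars for the standard error. In 16 genes the lines lie on opposite sides of 0, and Dclk3, Smc1b and Lrrtm3 lie on the same side.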

How the data were processed

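The files deposited by the authors hold raw read counts per gene, as whole numbers. The QIAseq FX Single Cell RNA kit was used, as the labels' protocols state. The submitters' processing notes name bcl2fastq 2.20.0.422, cutadapt 2.8, STAR 2.7.8a, HTSeq 2.0.2 and mm39. The sources used here do not give the annotation release or the strand setting. Counts of overlapping and antisense genes are therefore uncertain. Reads with several alignments (12.62 to 13.48% of the reads in a table) were set apart by the authors, so near-identical gene copies are uncertain too.

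Each table held 53700 genes, 92 spike-ins and 5 summary lines. The last 2 kinds were dropped before library sizes were computed. Symbols came from GENCODE M21 (52147 matched, 1553 not). Because its build, GRCm38, is not that of the files, only names, gene types, chromosomes and gene order were taken from it. Promoter sequences are RefSeq's on GRCm38.p6, outside chromosome 18.

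Genes passing filterByExpr were tested in the 6 Padi6-line libraries alone with edgeR 4.0.16 in R 4.3.3, by the two-sided quasi-likelihood F test (robust glmQLFit) after TMM scaling. P-values were adjusted by the Benjamini-Hochberg method across the whole table, and genes under 0.05 were called. The common biological coefficient of variation was 0.203, so at these depths the spread between libraries, not counting, limits most values. On simulated data for this comparison (17858 genes), 77 of 100 genes changed 2-fold and 98 of 100 changed 4-fold were called, and 14 unchanged genes were called. The difference between the lines was an interaction contrast over 12 biological replicates, technical libraries summed, and CPM given for the Tle6 line are scaled over both lines together.

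The rule names the subcortical maternal complex list, the 15 higher and 15 lower called protein-coding genes of largest fold change and the 10 and 10 of largest CPM difference (10 CPM or more in the higher group, no provisional names), the 4 called genes of smallest p in each list, genes called in both lines, and the 10 called genes with the smallest p for the difference between lines. Members and the 58 lists were chosen with earlier results of these data known. Genes of a list that did not pass were named as examples. A few named items are not reported here.

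Alternatives were RLE or total count scaling, other filters, DESeq2 1.42.0, limma-voom (limma 3.58.1), a 1.2-fold minimum, a spread shared with the Tle6 line, thinned counts, a replicate block, and each library left out. Scaling on spike-ins was not run, because het 3 holds only 40 spike-in counts.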

Additional observations from a re-analysis of the deposited data

Results flagged for a closer look

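The effect of the knockout differed between the Padi6 and the Tle6 line for the genes that follow, by the interaction test in edgeR. Values are the Padi6 minus the Tle6 log2 fold change. Padi6 itself differed by -6.02, as the gene is targeted in 1 line only. Haus8 and Rad51d, which fell in Padi6 KO and rose in Tle6 KO, differed by -5.29 and -3.48. H2-Aa differed by 5.02, Dusp6 by 4.32, Sox6 by 3.63, Erbb3 by 3.28, Rnf144a by 3.20, Frk by 3.01 and Epha7 by 2.71, all higher in Padi6 KO and lower in Tle6 KO. Strain background and line cannot be told apart.

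Spike-in RNA, which no comparison used, was uneven between libraries. It came to 142.8, 146.6 and 0.663 CPM of the gene counts in the het libraries and to 196.2, 72.4 and 87.7 in the KO libraries. In the 9 Tle6-line libraries it ran from 0.166 to 0.857 CPM. Het 3 lay within that range and the other Padi6-line libraries far above it. Het 3 is the library without which fewest calls remained, and whether its spike-in content is related to that was not tested.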

How the results depend on the processing

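Of the 440 genes called, 439 remained under RLE scaling, 407 under total count scaling, 358 in limma-voom and 433 in DESeq2. Counts that moved by over 1.5 times were 994 higher and 631 lower (1625 in all) with no filter on low counts. In DESeq2 they were 801 and 503 (1304). Both of these fits tested more genes. Of the DESeq2 calls, however, 1292 lay among genes also tested in edgeR, 7.27% of the 17766 given an adjusted p. Counts were 135 and 31 (166) with a 1.2-fold minimum, and 47 and 13 (60) with the spread shared with the Tle6 line. Without each library in turn, 61 to 258 genes were called, 49 to 197 higher and 12 to 79 lower. The replicate block gave 553 higher and 306 lower (859). Deviations of same-numbered libraries correlated at 0.154, 0.048 and 0.094, and those of differently numbered libraries at -0.138 to 0.058. Het 2 correlated best with KO 3. The labels state no pairing, and these values cannot settle whether same-numbered libraries belong together. The median of all genes moved by at most 0.03 between scalings.

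The difference between the lines passed for 567 genes (352 higher) with a mean of at least 5 CPM, where fewer genes were tested, for 382 (259 and 123) without library B and 1234 (824 and 410) without library A of Tle6 het replicate 2, and for 406 to 608 without a Padi6-line library (290 to 445 higher, 107 to 205 lower). With the replicate block it was 441 and 194. The cause of these shifts was not tested. Named genes kept their call in 111 of 112 cases with the block (Tcf4 lost it) and in all 111 given an adjusted p by DESeq2, and lost it in 38 to 74 without a library. Without het 1, the change of Nlrp4f was 0.01 in place of -0.07, and it ran down to -0.16 without het 2. The KO minus het difference of summed blood markers ran from -0.57 CPM without het 3 to 0.321 CPM without het 2.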

Other observations

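Families noticed only after the values were seen are given here as description, without a test. Over all genes tested 2.41% were called. Also counted were chemokines and their receptors (4 of 21 called), Trim genes (2 of 47), Zfp genes (6 of 300) and Tmem genes (6 of 169). Of 21 keratin genes tested, 4 rose and none fell. Krt71, a keratin of the hair follicle sheath, read 2.26, 1.80 and 1.87 CPM in the het libraries and 9.89, 10.2 and 9.69 CPM in the KO libraries (log2 fold change 2.33 ± 0.18 SE, edgeR adjusted p = 8.58e-04) and passed in every fit with a library left out. Krt73, Krt25 and Krt27, further hair follicle keratins, rose by 1.43, 1.5 and 1.82. Krt73 lies with Krt71 on chromosome 15, and the other 2 lie on chromosome 11. All 3 Krt71 libraries of KO stand far above het, while for Krt25 and Krt27 KO 1 is highest and KO 2 lowest. Krt73 lost its call without het 3, Krt25 without het 2, het 3, KO 1 or KO 3, and Krt27 without any library but KO 2.

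Of 4 tested genes for ligands of the natural killer receptor NKG2D, 3 rose. Raet1e read 13.4, 9.45 and 10.2 CPM in het and 20.6, 25.8 and 21.9 CPM in KO, Raet1d rose by 0.82 and H60b, at 0.528 CPM or less, by 2.29. Of 9 tested Xlr genes, X-linked genes in near-identical copies, 3 fell and none rose. Xlr3c read 6.81, 5.32 and 6.20 CPM in het and 1.93, 3.04 and 2.43 CPM in KO, and Xlr3b and Xlr5c changed by -1.17 and -1.24. Reads with several alignments were not counted, so the levels of these copies are uncertain. These calls were lost without 3 or more libraries each.

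Other genes outside the naming rule that passed in all fits with a library left out include Lcp2, an adaptor of immune receptors, at 15.9, 13.7 and 11.3 CPM in het and 37.2, 35.5 and 34.6 CPM in KO, and Adrb3, an adrenergic receptor, at 1.43, 1.92 and 1.85 CPM in het and 5.34, 6.64 and 7.38 CPM in KO. Creb5, Sntb1 and Hsd11b1 rose by 2.46, 2.7 and 2.15. On the lower side, Sgpp2, a sphingosine-1-phosphate phosphatase, read 3.95, 3.52 and 5.16 CPM in het and 0.698, 0.941 and 1.02 CPM in KO (-2.25 ± 0.26 SE, edgeR adjusted p = 0.00573). Ptpn14, a tyrosine phosphatase, read 4.74, 5.07 and 5.35 CPM in het and 1.45, 1.75 and 1.59 CPM in KO. In these genes the libraries of a genotype lie close together and the genotypes do not overlap. That follows largely from the choice of genes that passed in every fit. The genotypes did not overlap in any of the 440 called genes, nor in 23.5% of all genes tested.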
